A study of Rattus norvegicus with 9 samples.

Results

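Plasminogen activation was described through 4 genes of rat nucleus pulposus cells, the cells inside the soft centre of the spinal disc. They are Plau, which encodes the urokinase-type activator uPA, Plat, which encodes the tissue-type activator tPA, Plaur, the uPA receptor uPAR, and Serpine2, the inhibitor protease nexin-1. They were taken by symbol from the 22324 genes of the deposited count table, and all 4 had enough counts to be tested. Poly(A) RNA was sequenced from 9 libraries of primary wild-type cells in 3 groups of 3. BNPMT cells had doxorubicin-induced senescence and an intervention of that name, which the labels neither expand nor give a dose or time for. SEN cells had doxorubicin-induced senescence alone. Doxorubicin, a DNA-damaging drug, was given at 200 nM over 24 h, followed by 6 days in new medium. NC was taken as the control without doxorubicin from its title and the series' design text, although the same drug protocol stands on every sample. Whether the replicates of a group came from separate cultures is not said, so p-values rest on spread among libraries that may be only technical.

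Plasmin is a broad protease made from the zymogen plasminogen when uPA or tPA cuts it. It dissolves fibrin, cuts matrix proteins and can activate latent matrix metalloproteinases. uPAR, held in the membrane by a lipid anchor, binds uPA at the cell surface, and has been described as a surface marker of senescent cells. Serpins such as protease nexin-1 trap the activators in an inactive complex that endocytic receptors clear.

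Promoter sequences (build GRCr8) are shown for Plau and Plaur, which rose in SEN cells, and for Serpine2, which fell. No promoter sequence was available for Plat, which also rose. Each ends 50 bases past the annotated start and is written 5′ to 3′ on the gene's strand. Capitals mark the letters TGANTCA, a loose form of the AP-1 site with any base at N, and GGGCGG, the GC box, on either strand.
Plau promoter (chr15:3511938-3512237, minus strand): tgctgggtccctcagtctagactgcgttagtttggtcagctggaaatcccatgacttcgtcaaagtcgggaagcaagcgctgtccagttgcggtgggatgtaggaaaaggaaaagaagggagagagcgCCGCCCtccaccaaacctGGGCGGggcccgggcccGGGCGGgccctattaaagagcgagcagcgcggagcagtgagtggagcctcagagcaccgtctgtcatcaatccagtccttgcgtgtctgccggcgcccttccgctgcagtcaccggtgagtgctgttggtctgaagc
Plaur promoter (chr1:89181113-89181412, plus strand): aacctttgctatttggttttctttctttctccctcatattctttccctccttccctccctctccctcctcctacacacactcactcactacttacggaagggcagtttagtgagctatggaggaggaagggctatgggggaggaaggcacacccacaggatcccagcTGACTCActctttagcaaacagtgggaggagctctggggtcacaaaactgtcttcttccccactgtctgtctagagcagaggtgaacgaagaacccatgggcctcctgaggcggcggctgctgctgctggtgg
Serpine2 promoter (chr9:88637153-88637452, minus strand): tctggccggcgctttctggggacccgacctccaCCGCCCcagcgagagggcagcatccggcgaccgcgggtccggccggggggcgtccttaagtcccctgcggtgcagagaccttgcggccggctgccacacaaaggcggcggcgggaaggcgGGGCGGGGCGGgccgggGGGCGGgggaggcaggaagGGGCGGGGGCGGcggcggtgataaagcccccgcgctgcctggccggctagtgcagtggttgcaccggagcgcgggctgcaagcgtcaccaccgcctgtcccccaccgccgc
The Plaur window held 1 AP-1 match, TGACTCA, with its first base at -83 from the start, and no GC box. TGANTCA stood in 7.33% of all 33469 promoter windows of the same length, and the share with TGACTCA itself was not counted. The Plau window held 3 GC boxes and no AP-1 match. The Serpine2 window held 6 GC boxes, of which 2 overlap by 1 base, and no AP-1 match. GGGCGG stood at least once in 33.1% of all windows, and how many windows held as many as 3 or 6 was not counted. Of the other motifs searched on either strand, the ETS letters CAGGAA occurred in Serpine2 (29.1% of all windows). The E-box CACGTG (6.42%) and the cAMP response element TGACGTCA (1.83%) occurred in none of these 3. For NF-kappaB only a narrow form of the motif was searched (1.53%), and that form occurred in none of these 3 either. Other forms were not searched, so an NF-kappaB site is not excluded in these windows, Plau included.

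Levels are given as CPM, each gene's count relative to the total count of its library. Total counts were 35094282 to 41971877 in BNPMT, 31206834 to 38391586 in SEN and 34514440 to 41873790 in NC libraries. Log2 changes were scaled by trimmed means of M-values (TMM) and tested with edgeR's quasi-likelihood test, p-values being adjusted over 14956 genes by Benjamini-Hochberg, and an adjusted p below 0.05 was called. The scale matters here. With total counts in place of TMM the median gene stood at a log2 change of -0.46 in SEN against NC, where TMM gave -0.01. Between BNPMT and SEN the median was 0.52 with total counts and 0.02 under TMM, and between BNPMT and NC it was 0.06 and 0.00. In these bulk samples, fewer cells of a type and less RNA per cell cannot be told apart. Of 10 nucleus pulposus markers, Tbxt, Krt18, Krt19 and Car12 averaged below 1 CPM in every group, whereas Col2a1 averaged 1962 CPM in BNPMT, 6492 in SEN and 4571 in NC and Acan 322 CPM in BNPMT, 681 in SEN and 587 in NC. Of the 7 markers tested, 6 rose and Foxf1 fell in SEN against NC, where 37.6% of all tested genes were higher and 38.5% lower. Those that rose include Krt19, at its low level, and Sox9, which changed sign with total counts. Foxf1 averaged 29.2 CPM in BNPMT, 17.1 in SEN and 30.6 in NC, and Cd24 42.2 CPM in BNPMT, 47.2 in SEN and 29.9 in NC.

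Both activator genes rose in SEN cells and were near the NC level in BNPMT cells. Plau had 74.6, 64.0 and 62.4 CPM in BNPMT libraries, 214.5, 201 and 213 CPM in SEN libraries, and 56.6, 55.3 and 54.0 CPM in NC libraries. The SEN libraries stood far above all others, and the lowest BNPMT library stood above the highest NC library. In SEN against NC the CPM level was 3.79-fold higher, and the log2 change under TMM, which scales the SEN libraries up, was 2.38 ± 0.07 (SE, edgeR adjusted p = 1.32e-12). Relative to SEN, BNPMT libraries were 3.13-fold lower by CPM, and the log2 change under TMM was -2.15 ± 0.07 (edgeR adjusted p = 3.09e-12). BNPMT cells stayed slightly above NC, with a log2 change of 0.23 ± 0.07 (edgeR adjusted p = 0.0108). That call ended without NC 3 (adjusted p = 0.0556) and after a correction for each library's trend over transcript length (log2 change 0.11, adjusted p = 0.165), and the change was 0.15 without BNPMT 1, whether or not SEN 1 was left out too.

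Plat had 83.1, 83.3 and 82.1 CPM in BNPMT libraries, 163, 157 and 159 CPM in SEN libraries, and 68.1, 66.3 and 62.5 CPM in NC libraries. The 3 groups did not overlap, with SEN highest and BNPMT between SEN and NC. The rise in SEN against NC was 2.43-fold by CPM, and the log2 change under TMM was 1.74 ± 0.05 (edgeR adjusted p = 3.51e-12). In BNPMT against SEN the log2 change was -1.45 ± 0.05 (edgeR adjusted p = 1.78e-11), and -0.95 with total counts. BNPMT cells stayed above NC by a log2 change of 0.29 ± 0.05 (edgeR adjusted p = 0.000626). In the RefSeq table, whose build is not that of the counts, Plat overlaps a pseudogene and Ikbkb, which encodes a kinase of the NF-kappaB pathway. Plau overlaps the lncRNA gene LOC120096900, which averaged 0.00797 CPM in BNPMT and 0 in SEN and NC. The strand setting of the counting is not given in the sources used here. Ikbkb had 35.5 ± 2.73 CPM in BNPMT, 16.5 ± 1.32 in SEN and 32.4 ± 1.59 in NC libraries (SD, n = 3). Any part of these overlaps in the counts was not tested.

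The receptor gene changed most of the 4. Plaur had 16.4, 19.3 and 17.6 CPM in BNPMT libraries, 288, 270 and 275 CPM in SEN libraries, and 15.6, 15.9 and 15.9 CPM in NC libraries. The BNPMT and NC libraries lay close together, without overlap, and the SEN libraries lay more than an order of magnitude above them. In SEN against NC the CPM level was 17.6-fold higher, and the log2 change under TMM was 4.59 ± 0.07 (edgeR adjusted p = 5.79e-15). By that change it ranked 556 from the top of 14956 genes. Relative to SEN, BNPMT libraries were 15.7-fold lower by CPM, and the log2 change was -4.47 ± 0.07 (edgeR adjusted p = 6.61e-15). On the log2 scale the change between BNPMT and SEN was 97.5% of that between SEN and NC and of opposite sign. The same share was 90.4% for Plau and 83.5% for Plat. These shares hold under TMM and depend on the scale. With total counts the changes in SEN against NC and BNPMT against SEN were 4.13 and -3.97 for Plaur. They were 1.92 and -1.64 for Plau, and 1.28 and -0.95 for Plat. Between BNPMT and NC the log2 change of Plaur was 0.11 ± 0.07 and did not pass the test (edgeR adjusted p = 0.196). That result depended on the setting. Plaur was called higher without BNPMT 1 (adjusted p = 0.0339) and with limma on log2(FPKM + 1) (adjusted p = 0.0421) or log2(FPKM + 0.1) (adjusted p = 0.0392). It was called lower with the length trend taken out (log2 change -0.23, adjusted p = 0.00124).

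The inhibitor gene moved against the other 3 in both comparisons with SEN, but rose with Plau and Plat in BNPMT against NC. Serpine2 had 792, 824 and 832 CPM in BNPMT libraries, 263, 236 and 244 CPM in SEN libraries, and 453, 445 and 453 CPM in NC libraries. No groups overlapped, and BNPMT cells held the highest level, above NC. In SEN against NC Serpine2 fell by 0.41 on the log2 scale (SE 0.05, edgeR adjusted p = 1.09e-05), and the change was -0.86 with total counts. In BNPMT against SEN it rose by 1.22 ± 0.06 (edgeR adjusted p = 1.43e-10). Relative to NC it rose in BNPMT by 0.81 ± 0.05 (edgeR adjusted p = 1.77e-07), and over 19 alternatives this change lay between 0.69 and 0.86. By this rise it ranked 918 from the top of the 14956 tested genes.

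**Figure D1:**
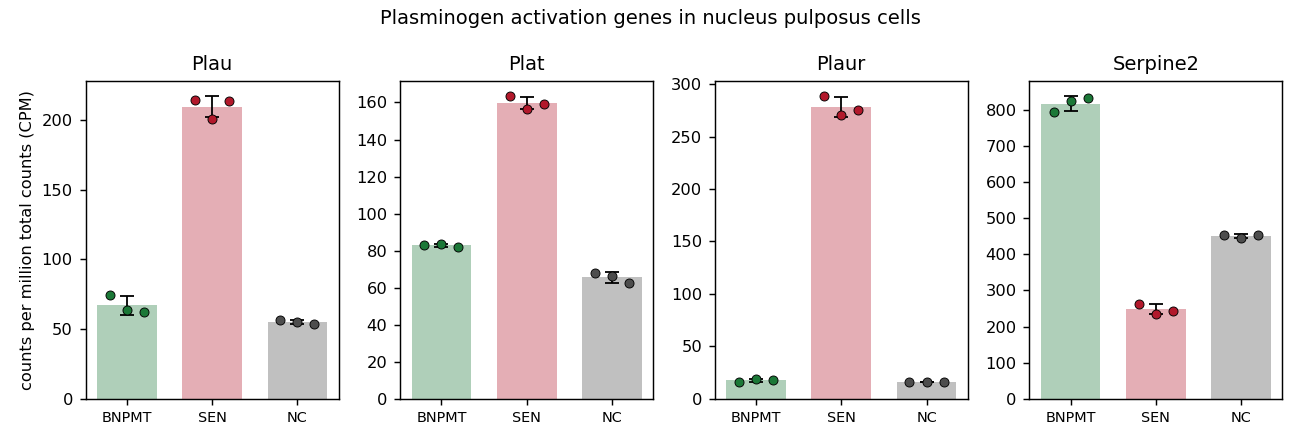
CPM (y axis, linear, from 0) of Plau, Plat, Plaur and Serpine2 in BNPMT, SEN and NC libraries. Bars are means of 3 libraries, error bars SD and points single libraries. Plau, Plat and Plaur peak in SEN, at 210, 160 and 278 CPM, whereas Serpine2 is lowest there, at 248 CPM, and highest in BNPMT, at 816 CPM.

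All 4 genes were called in SEN against NC, where 76.1% of all tested genes were called, and in BNPMT against SEN, where 80.6% were. In BNPMT against NC 3 of 4 were called, against 52.8% of all tested genes. The sign of BNPMT against SEN was opposite to that of SEN against NC, both called, in all 4 genes and in 64.9% of all tested genes. These shares of members are near the background and are no result about the members. How many of all tested genes had groups without overlap was not counted. The lack of overlap given for single members therefore has no background and is no result about them either. The comparisons share libraries and are not independent of each other. Apart from Plau and Plaur in BNPMT against NC, each gene kept its direction and its call under all 19 alternatives in each comparison.

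**Figure D2:**
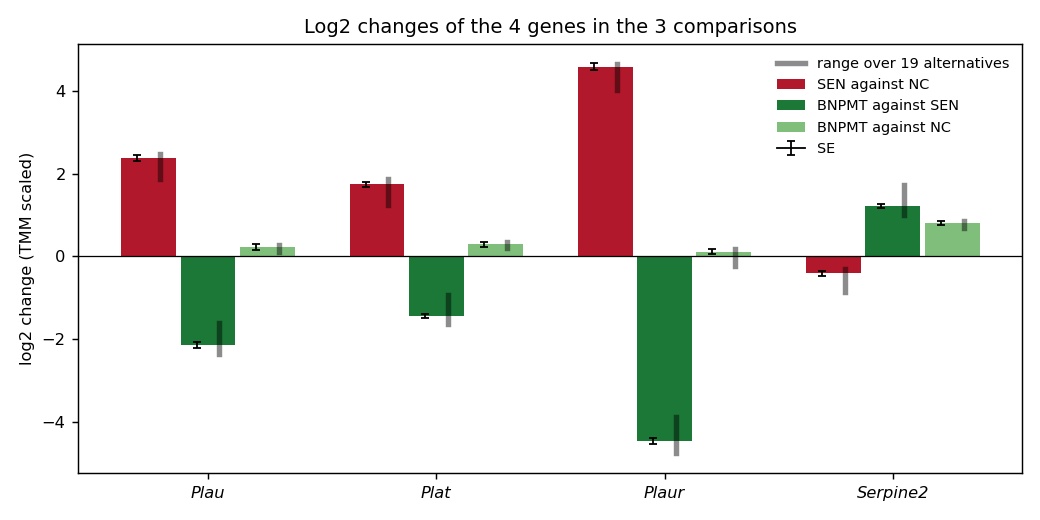
Log2 change (y axis) of each gene in SEN against NC, BNPMT against SEN and BNPMT against NC. Bars are values scaled by TMM, thin error bars SE, and grey lines the range over 19 alternatives. The range crosses 0 for 1 of the 12 values, Plaur in BNPMT against NC, where it runs from -0.23 to 0.18.

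FPKM, which divides by gene length as well as depth, allows levels to be compared between genes. The lengths implied by the deposited values were 2327 bases for Plau, 2556 for Plat, 1246 for Plaur and 2298 for Serpine2. In BNPMT cells Serpine2 led with 355 ± 9.17 FPKM (SD, n = 3), ahead of Plat with 32.4 ± 0.266, Plau with 28.8 ± 2.84 and Plaur with 14.2 ± 1.17 FPKM. In SEN cells the order differed, with Plaur first at 223 ± 7.63 FPKM, then Serpine2 at 108 ± 6.01, Plau at 90.1 ± 3.26 and Plat at 62.5 ± 1.34 FPKM. In NC cells the order was that of BNPMT cells, with Serpine2 at 196 ± 1.95, Plat at 25.7 ± 1.13, Plau at 23.8 ± 0.550 and Plaur at 12.7 ± 0.136 FPKM. Plau and Plat, neighbours in that order, nearly met: the highest Plau and lowest Plat libraries had 32.06 and 32.10 FPKM in BNPMT, and 24.30 and 24.45 FPKM in NC.

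The ratios of these FPKM values within a library do not depend on the scale between libraries. They can depend on each library's trend over transcript length, which was not taken out of them. Plaur over Plau was 0.410, 0.562 and 0.527 in BNPMT libraries, 2.51, 2.51 and 2.41 in SEN libraries, and 0.516, 0.538 and 0.549 in NC libraries. Receptor transcripts exceeded those of the ligand in the 3 SEN libraries and in none of the other 6. Plau over Plat averaged 0.889 ± 0.0848 in BNPMT, 1.44 ± 0.0324 in SEN and 0.926 ± 0.0202 in NC. Plau over Serpine2 averaged 0.0812 ± 0.0102 in BNPMT, 0.837 ± 0.0293 in SEN and 0.121 ± 0.00307 in NC (SD, n = 3). The SEN libraries did not overlap those of either other group in any of these ratios. The two-sided exact permutation test gave p = 0.1 for each, the smallest that 3 against 3 libraries allow, and an adjusted p of 0.129 over 9 tests. Between BNPMT and NC the log2 difference of Plaur over Plau was -0.11 (exact permutation p = 0.8), that of Plau over Plat -0.06 (exact permutation p = 0.4), and that of Plau over Serpine2 -0.58 without overlap (exact permutation p = 0.1).

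**Figure D3:**
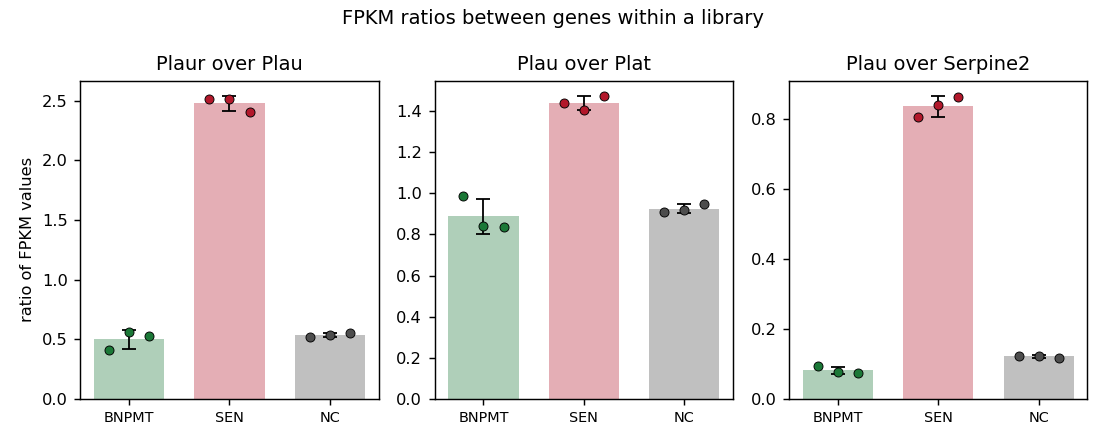
Ratios of FPKM values (y axis, linear, from 0) of Plaur over Plau, Plau over Plat and Plau over Serpine2 in BNPMT, SEN and NC libraries. Bars are means of 3 libraries, error bars SD and points single libraries. In all 3 panels the SEN libraries lie above the others, with Plau over Serpine2 at 0.0812 in BNPMT, 0.837 in SEN and 0.121 in NC.

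The wider system was described from lists of 46 genes, the 4 members included, of which 43 matched a row and 36 were tested. In SEN against NC 23 of the 36 rose and 8 fell, while 5 were not called, against 37.6% of all tested genes higher and 38.5% lower. With total counts 14 rose and 14 fell, against 24.5% of all tested genes higher and 56.9% lower on that scale. Their median log2 change was 0.51 under TMM and 0.05 with total counts. In BNPMT against SEN 7 rose and 24 fell, against 40.7% and 39.9% of all tested genes. With total counts 11 rose and 17 fell there, against 57.3% and 25.8%. Relative to NC, 12 rose and 16 fell in BNPMT, against 26.3% and 26.5% of all tested genes, and with total counts 13 and 16, against 30.2% and 22.5%. The median log2 change of the 36 was -0.78 in BNPMT against SEN and -0.27 in BNPMT against NC, where that of all tested genes was 0.02 and 0.00. With total counts it was -0.28 in BNPMT against SEN and -0.22 in BNPMT against NC, where that of all tested genes was 0.52 and 0.06. Plasminogen itself was barely detected and not tested: Plg had 13 counts in BNPMT, 9 in SEN and 13 in NC, each summed over 3 libraries.

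Of 7 tested inhibitor genes, 5 rose in SEN against NC, or 4 with total counts, and Serpine2 was the gene that fell. Of all tested genes 37.6% were higher and 38.5% lower there, or 24.5% and 56.9% with total counts. In BNPMT against SEN 1 rose, Serpine2, and 4 fell, and with total counts 2 rose and 4 fell. All tested genes were 40.7% higher and 39.9% lower in that comparison, or 57.3% and 25.8% with total counts. In BNPMT against NC 2 rose and 2 fell on both scales. The shares of all tested genes there were 26.3% and 26.5%, or 30.2% and 22.5% with total counts. Serpinb2, which encodes the uPA inhibitor PAI-2, moved opposite to Serpine2 at a low level, with 0.957, 1.03 and 1.62 CPM in BNPMT, 10.6, 15.0 and 12.8 CPM in SEN, and 1.59, 1.98 and 1.58 CPM in NC libraries. Its log2 change in SEN against NC was 3.34 ± 0.19 (edgeR adjusted p = 1.39e-09), 1.64 at the lowest over 19 alternatives, and in BNPMT against SEN -3.90 ± 0.20. Serpini1, the neuroserpin gene, whose product inhibits tPA, averaged 15.4 ± 1.19 CPM in BNPMT, 28.6 ± 1.21 in SEN and 20.2 ± 0.433 in NC, and rose in SEN against NC by a log2 change of 0.96 ± 0.07, or 0.50 with total counts. A2m, which encodes a trap for many proteases, rose in SEN against NC by a log2 change of 0.71 ± 0.08, 0.26 with total counts. In BNPMT it was lower than in both other groups, at 28.4 ± 3.94 CPM against 65.6 ± 4.41 in SEN and 54.8 ± 1.62 in NC.

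Of 14 tested receptors and binding proteins, 8 rose and 4 fell in SEN against NC, and 3 rose and 8 fell with total counts. The shares of all tested genes were 37.6% higher and 38.5% lower, or 24.5% and 56.9% with total counts. After Plaur the largest rise was that of S100a10, whose protein binds plasminogen and tPA at the cell surface together with annexin A2. It had 350, 427 and 420 CPM in BNPMT, 573, 471 and 478 CPM in SEN, and 248, 265 and 273 CPM in NC libraries, a log2 change of 1.41 ± 0.09 in SEN against NC. The rises of Lrp1, the endocytic receptor of activator and inhibitor complexes, and of Itgb1, an integrin chain that partners uPAR, were 0.62 ± 0.09 and 0.60 ± 0.05. With total counts they were 0.17 and 0.15, and Lrp1 was not called under 3 of 19 alternatives. Vldlr, a relative of Lrp1 that also clears these complexes, fell by 1.08 on the log2 scale. It averaged 37.3 ± 1.80 CPM in BNPMT, 18.1 ± 1.68 in SEN and 52.2 ± 1.67 in NC. The integrin chain gene Itga3 and Plgrkt, a plasminogen receptor gene, fell at log2 changes of -0.65 and -0.42, which were -1.10 and -0.88 with total counts. Both were highest in BNPMT cells, Itga3 at 151 ± 14.5 CPM there, against 38.8 ± 2.53 in SEN and 83.2 ± 2.67 in NC.

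Of these 14 genes, 5 rose and 8 fell in BNPMT against SEN, and 5 and 5 with total counts. Among all tested genes it was 40.7% and 39.9%, and 57.3% and 25.8% with total counts. Besides Plaur the largest falls were those of Lrp1 (log2 change -1.32), Mrc2, a collagen receptor that associates with uPAR (-0.98), and Itgb1 (-0.88), which with total counts were -0.82, -0.48 and -0.38. Between BNPMT and NC 5 rose and 8 fell, against 26.3% and 26.5% of all tested genes. Eno1, the enolase gene whose product also binds plasminogen, rose by 0.92 ± 0.07, and Anxa2, the annexin A2 gene, by 0.65 ± 0.07, and by 0.36 at the lowest over 19 alternatives. Lrp1 and Vldlr fell at log2 changes of -0.70 and -0.54, which over 19 alternatives came as near to 0 as -0.24 and -0.20.

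Of 13 tested substrates and neighbouring genes, 8 rose and 3 fell in SEN against NC, and 5 and 5 with total counts. Among all tested genes 37.6% were higher and 38.5% lower, and 24.5% and 56.9% with total counts. Tfpi2, which encodes a Kunitz inhibitor of plasmin and other proteases, had 2.27, 1.77 and 1.88 CPM in BNPMT, 116, 128 and 114 CPM in SEN, and 1.45, 2.69 and 2.27 CPM in NC libraries. The log2 change was 6.23 ± 0.14 in SEN against NC (edgeR adjusted p = 1.07e-13) and -6.41 ± 0.14 in BNPMT against SEN (edgeR adjusted p = 8.50e-14). The BNPMT and NC libraries overlapped. Procr, the protein C receptor gene, rose by 2.42 ± 0.10 in SEN against NC, F3, the tissue factor gene that starts clotting, by 1.24 ± 0.06, or 0.78 with total counts, and the growth factor gene Pdgfc by 0.73 ± 0.08, or 0.28 with total counts. Thbd and F2r, which encode thrombomodulin and a thrombin receptor, fell at log2 changes of -0.41 and -0.34, which were -0.86 and -0.79 with total counts. Between BNPMT and SEN 1 of the 13 rose and 10 fell, among them Procr, F3 and Met, the receptor gene of hepatocyte growth factor, at log2 changes of -2.11, -1.61 and -1.15. With total counts 4 rose and 6 fell, and Met was at -0.65. All tested genes were 40.7% higher and 39.9% lower between BNPMT and SEN, or 57.3% and 25.8% with total counts.

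**Figure D4:**
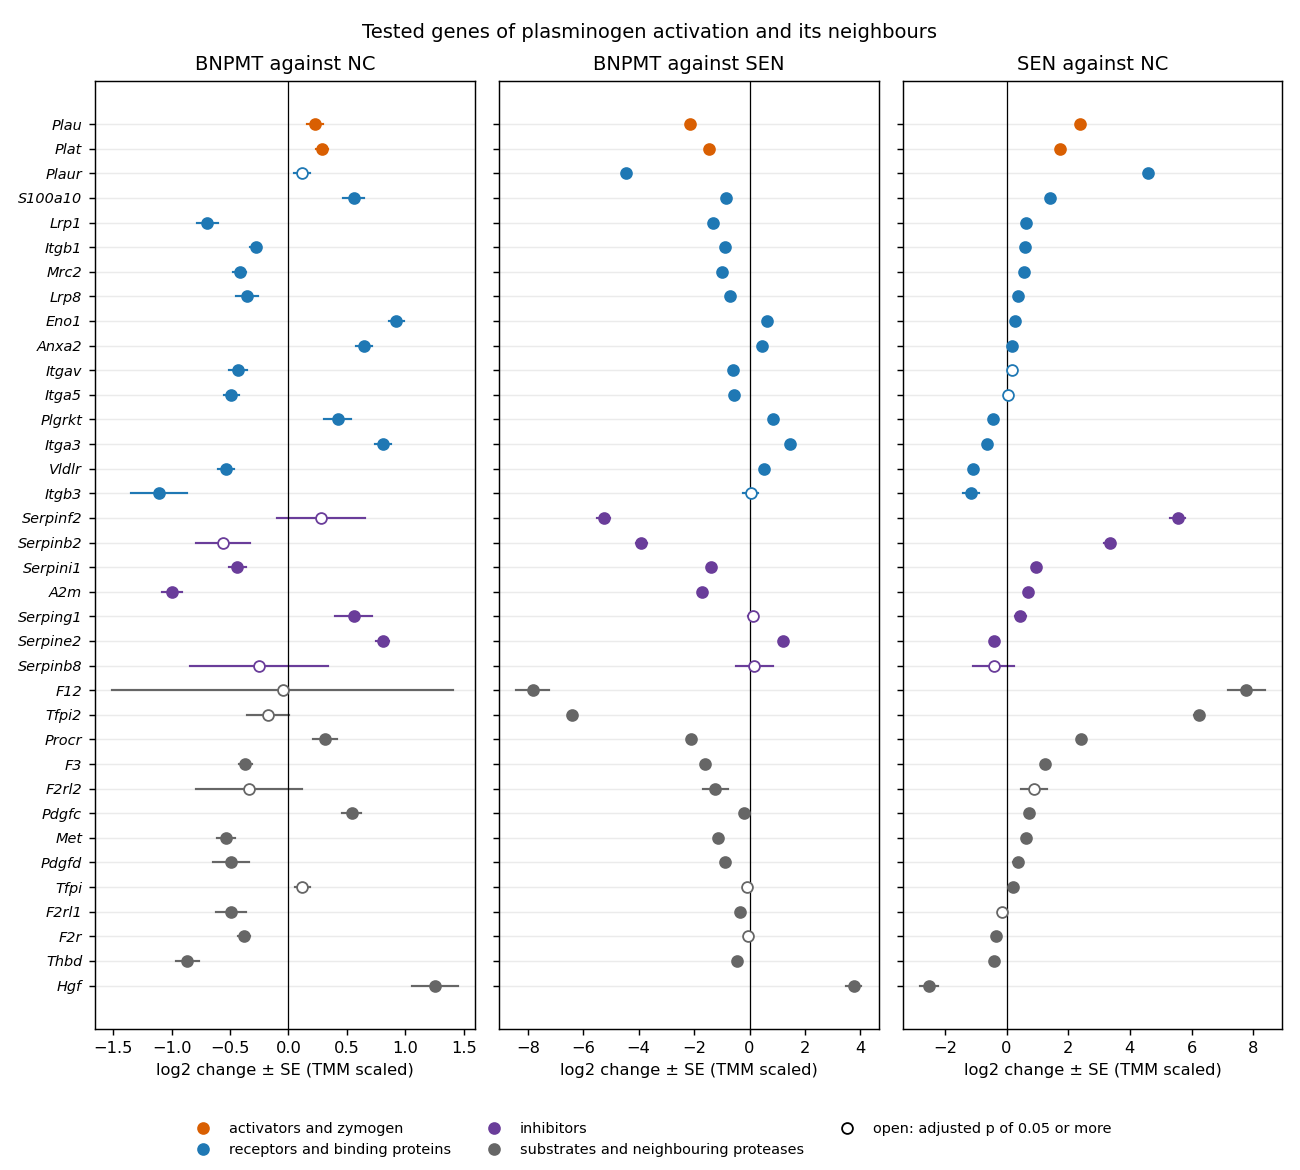
Log2 change with SE (x axis, scaled by TMM, a different range in each panel) of the 36 tested genes of the lists, in BNPMT against NC, BNPMT against SEN and SEN against NC. Colours mark the 4 lists, and open points genes with an adjusted p of 0.05 or more. Plaur stands at 4.59 in SEN against NC, -4.47 in BNPMT against SEN and, as an open point, 0.11 in BNPMT against NC.

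The 4 genes were also set beside 10167 other tested protein-coding genes with a mean of at least 5 CPM. Genes whose name is only a placeholder, such as a LOC number, were left out. Likeness was Pearson's correlation of log2 CPM scaled by TMM over the 9 libraries, which share 3 groups. Plaur was most like Hspa1a (r = 0.9998), the gene of an inducible heat shock protein, followed by Gadd45b (r = 0.9997), a stress-induced gene, and Ifrd1 (r = 0.9996). The reads of Hspa1a can be split with its near-identical copy Hspa1b. Plau was most like Nrg1, the neuregulin gene, Dennd2c and Tor1aip2 (r = 0.9994, 0.9994 and 0.9992), and Plat most like the phosphatase gene Dusp5, the tubulin gene Tuba1c and Tob1 (r = 0.9992, 0.9987 and 0.9986). Serpine2 was most like Pfkl, which encodes a phosphofructokinase of glycolysis, at r = 0.9992, with 162 CPM in BNPMT, 42.9 in SEN and 79.4 in NC. C15h14orf119 and the peptidase gene Nln followed (r = 0.9974 and 0.9973). Such values are common here: 1941 genes exceeded 0.9 with Plaur, 1853 with Plau, 1741 with Plat and 1245 with Serpine2. Between the members, r was 0.9953 for Plau and Plat, 0.9946 for Plau and Plaur, and 0.9901 for Plat and Plaur. For Serpine2 it was -0.7395 with Plaur, -0.6980 with Plau and -0.6448 with Plat.

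Markers of other cell types also differed between the groups, in unlike directions. Plaur and Serpinb2 are also expressed by macrophages, and of 6 matched macrophage and monocyte markers 4 were tested. In SEN against NC 3 of them rose and 1 fell, where 37.6% of all tested genes were higher and 38.5% lower. The summed level of the 6 matched markers was 16.4 to 18.4 CPM in BNPMT, 31.2 to 34.4 in SEN and 11.3 to 12.9 in NC. Cd68 had 0.527 ± 0.147 CPM in BNPMT, 22.6 ± 1.81 in SEN and 0.464 ± 0.298 in NC, and Itgam had 3.97 ± 0.0132 CPM in SEN and no counts in the other groups. Lyz2 was at 0.0652 ± 0.0339 CPM in BNPMT, 1.55 ± 0.340 in SEN and 0.236 ± 0.145 in NC. The macrophage receptor gene Csf1r, not tested, was at 0.0319 ± 0.0365 CPM in BNPMT, 0.404 ± 0.141 in SEN and 0.0605 ± 0.0618 in NC. Adgre1 had no counts in BNPMT and SEN and 1 count in NC, and Cd14 had 16.6 ± 1.12 CPM in BNPMT, 4.04 ± 0.0294 in SEN and 11.4 ± 0.353 in NC. The 7 matched endothelial markers summed to 0.981 to 1.54 CPM in BNPMT, 4.95 to 5.54 in SEN and 1.04 to 1.55 in NC, with Pecam1 at 4.04 ± 0.246 CPM in SEN and Cdh5 at 2 counts over its 3 libraries. The 6 smooth muscle markers summed to 2532 to 2776 CPM in BNPMT, 1307 to 1475 in SEN and 4491 to 4535 in NC. The part of these markers in the results was not tested.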

How the data were processed

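The members, lists and tests were chosen with earlier results of these data known. The authors deposited whole-number counts per gene and FPKM values. Per the submitters' processing notes, reads passed through fastp, HISAT2 and HTSeq on the build mRatBN7.2. Their versions, the annotation and the strand setting are not given here. The deposited FPKM equals count divided by gene length and total count (relative spread of implied lengths at most 2.85e-13), and the single-sample FPKM files repeat the table. No pair of libraries was a duplicate (chi-square per degree of freedom 3.51 to 33.5 within groups). BNPMT 1 stood apart, at 33.5 and 28.1 from BNPMT 2 and BNPMT 3, which were at 3.51. SEN 1 was at 17.7 and 14.1 from SEN 2 and SEN 3, which were at 6.94.

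Genes were filtered with filterByExpr and tested in edgeR 4.0.16 (R 4.3.3; quasi-likelihood test, TMM, 3 groups, all 9 libraries, Benjamini-Hochberg adjustment). An SE is the log2 change over the root of the F statistic. The model was tested on simulated data in which a small set of genes changed, raised and lowered in equal numbers. Such data do not test the TMM scaling. Pathway genes were named when called with a mean of at least 5 CPM, up to 4 a list and direction by size of change, and by likeness as stated. One item of the lists is not reported here and is left out of their counts. Genes named for other reasons, such as Plg and the markers, and the sum of the activators, were chosen after their values were seen.

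Alternatives were DESeq2 size factors, total counts, DESeq2 1.42.0 with its Wald test, all genes unfiltered, fits restricted to the groups compared, a replicate block, limma 3.58.1 on log2(FPKM + 1) and log2(FPKM + 0.1), which understates changes of low genes, a loess correction for transcript length, and leaving out each library or SEN 1 and BNPMT 1.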

Additional observations from a re-analysis of the deposited data

How the results depend on the processing

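Of 228 recomputed log2 changes of the 4 genes, 221 kept the direction and the side of the threshold, and the other 7 all concerned BNPMT against NC. For Plau the log2 change of 0.23 was 0.11 once the length trend was removed (adjusted p = 0.165), and leaving out each library in turn it lay between 0.15 and 0.27, with the call lost without NC 3 (adjusted p = 0.0556). For Plaur the value of 0.11 was 0.15 and 0.16, and called, with limma on log2(FPKM + 1) and log2(FPKM + 0.1), 0.17 and called without SEN 1 and BNPMT 1 (adjusted p = 0.016), and -0.23 and called with the length trend taken out. Leaving out each library it lay between 0.042 and 0.18, called without BNPMT 1. The log2 difference of Plaur over Plau in BNPMT against NC was 0.027 without BNPMT 1 and lay between -0.20 and 0.027 leaving out each library. It was not recomputed with the length trend taken out, which put Plaur at -0.23 and Plau at 0.11 in that comparison. The cause was not tested.

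No pairing of libraries by replicate number was seen. Correlations of same-numbered deviations ran from -0.24 to 0.06, and those of other pairs between groups from -0.08 to 0.16. With 3 libraries a group these values cannot exclude a pairing. With the replicate block no call of the 4 genes changed (Plaur in SEN against NC at 4.59), and 30 pathway genes were called in that comparison in place of 31. The split of pathway calls depended on the scale: in SEN against NC 14 higher and 14 lower with total counts or limma on FPKM. With 3 libraries a group, exact tests of ratios cannot pass 0.05.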

Other observations

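Plau plus Plat, both activators together, came to 61.2 ± 2.96 FPKM in BNPMT, 152 ± 4.42 in SEN and 49.4 ± 1.67 in NC (SD, n = 3). Their sum over the FPKM of Serpine2 was 0.187, 0.168 and 0.163 in BNPMT libraries, 1.36, 1.44 and 1.45 in SEN libraries, and 0.258, 0.256 and 0.242 in NC libraries, without overlap between groups. The sum was formed after the values were seen and was not tested. Transcript levels say nothing of the amount of active protein.

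Serpinf2, which encodes the plasmin inhibitor alpha-2-antiplasmin, was below the minimum level for named genes. It averaged 0.432 ± 0.0842 CPM in BNPMT, 11.8 ± 0.682 in SEN and 0.336 ± 0.210 in NC, with a log2 change of 5.55 ± 0.24 in SEN against NC (edgeR adjusted p = 1.03e-10), 2.47 at the lowest over 19 alternatives. Hgf, the growth factor gene whose product uPA can activate, averaged 4.44 ± 1.05 CPM in BNPMT, 0.232 ± 0.0533 in SEN and 1.80 ± 0.195 in NC, highest in BNPMT and lowest in SEN.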
